A study of Mus musculus with 2 samples.

Results

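Rab, Vps and Snx genes encode the core machinery of vesicle trafficking in mouse cells. They were taken as the protein-coding genes of the GENCODE vM21 annotation (GRCm38) whose symbol is Rab, Vps or Snx followed by a number, leaving out Vps72, and 133 of 21951 protein-coding genes met this rule. Of these, 69 were Rab, 34 Vps and 30 Snx genes. For each gene the peaks of a GFP and a SRCAP antibody list were counted at its promoter and in its body. A promoter peak was one whose midpoint lay between 1000 bp before and 500 bp after a transcription start site (TSS), counting each annotated transcript of the gene. A body peak had its midpoint in the gene and outside each such window of that gene.

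The lists come from CUT&RUN, in which a nuclease guided by an antibody releases the DNA next to the bound protein, in SYAT mouse embryonic stem cells (mESC). SYAT is a CGR8 line in which YPet-AID, a yellow fluorescent protein joined to an auxin-inducible degron, is fused to both alleles of Srcap, and in which the receptor OsTir1 is stably expressed. SRCAP is the catalytic subunit of the remodelling complex that places the histone variant H2A.Z in nucleosomes. The GFP antibody (ab290) recognises the YPet tag and the SRCAP antibody (ESL-103) the protein itself. The line was routinely kept in auxinole, which prevents unwanted loss of SRCAP, at 200 nM by the labels. The methods give the same figure in µM, and which unit holds was not settled. The labels of both libraries give a fixation in 0.1% formaldehyde for 5 min. Beyond this and the auxinole, the treatment of each library is not labelled. Both libraries carry the tagged protein, so no untagged control was compared. The study's methods describe 1 replicate of CUT&RUN with the SRCAP antibody and give the GFP antibody under CUT&Tag, so it is the label that makes the GFP library a CUT&RUN library. There was 1 library per antibody, hence no test between antibodies and no p-value. Peak lists hold no expression values, so the labelled cell type could not be checked against markers.

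Rab proteins are small GTPases that mark membranes by identity and recruit motors, tethers and fusion factors in their GTP-bound state. Vps proteins, first found in yeast mutants that missort vacuolar proteins, form the coats and tethers of endosomes and lysosomes, such as retromer, HOPS and the ESCRT complexes. Sorting nexins (Snx) bind phosphoinositides on endosomes through a PX domain, and some bend the membrane through a BAR domain.

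Promoter DNA under the strongest peaks is shown first, because the peak scores described further on refer to it. The first 8 stretches are bases common to the strongest GFP and SRCAP peak of the gene that lie in no annotated exon, at most 200 bases each. Rab7, the GTPase of late endosomes, had no promoter peak, and the bases directly upstream of its reference TSS are given for contrast. All are GRCm38 sequence, written 5′ to 3′ on the strand of the gene. Capitals mark exact matches to the searched motifs. The positions are, in order, Rab3a at chr8:70754399-70754598, plus strand, Rab8a at chr8:72160942-72161141, plus strand, Rab11b at chr17:33760588-33760729, minus strand, Rab11fip5 at chr6:85374906-85375105, minus strand, Vps26a at chr10:62486874-62487073, minus strand, Vps8 at chr16:21423002-21423117, plus strand, Snx32 at chr19:5510539-5510713, minus strand, Snx14 at chr9:88438984-88439183, minus strand, and Rab7 at chr6:88045271-88045470, minus strand.
Rab3a: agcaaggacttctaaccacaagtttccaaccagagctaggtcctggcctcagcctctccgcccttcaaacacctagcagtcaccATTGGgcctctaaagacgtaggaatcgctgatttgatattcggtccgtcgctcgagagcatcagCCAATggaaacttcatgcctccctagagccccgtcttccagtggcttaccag
Rab8a: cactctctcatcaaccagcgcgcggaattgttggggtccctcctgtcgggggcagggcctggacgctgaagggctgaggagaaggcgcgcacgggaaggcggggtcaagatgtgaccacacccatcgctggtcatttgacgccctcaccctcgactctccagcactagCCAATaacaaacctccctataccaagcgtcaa
Rab11b: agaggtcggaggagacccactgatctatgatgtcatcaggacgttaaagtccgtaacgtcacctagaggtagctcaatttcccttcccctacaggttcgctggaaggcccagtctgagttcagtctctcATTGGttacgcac
Rab11fip5: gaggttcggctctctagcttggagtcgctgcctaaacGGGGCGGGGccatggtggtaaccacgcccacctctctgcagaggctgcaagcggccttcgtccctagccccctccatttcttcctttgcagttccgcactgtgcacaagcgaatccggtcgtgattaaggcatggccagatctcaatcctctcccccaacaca
Vps26a: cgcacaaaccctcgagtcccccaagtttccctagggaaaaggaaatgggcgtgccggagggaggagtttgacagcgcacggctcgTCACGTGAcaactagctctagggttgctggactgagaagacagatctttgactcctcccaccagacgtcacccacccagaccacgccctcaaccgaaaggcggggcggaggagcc
Vps8: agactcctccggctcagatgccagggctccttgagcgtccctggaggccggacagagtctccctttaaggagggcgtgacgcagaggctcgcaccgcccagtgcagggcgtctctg
Snx32: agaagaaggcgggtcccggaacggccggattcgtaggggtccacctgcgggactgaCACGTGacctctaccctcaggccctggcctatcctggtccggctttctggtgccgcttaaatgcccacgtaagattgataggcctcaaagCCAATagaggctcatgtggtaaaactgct
Snx14: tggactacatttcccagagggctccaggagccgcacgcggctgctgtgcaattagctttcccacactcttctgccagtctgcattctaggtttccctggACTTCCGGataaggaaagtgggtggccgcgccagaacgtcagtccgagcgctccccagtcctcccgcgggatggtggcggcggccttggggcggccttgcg
Rab7: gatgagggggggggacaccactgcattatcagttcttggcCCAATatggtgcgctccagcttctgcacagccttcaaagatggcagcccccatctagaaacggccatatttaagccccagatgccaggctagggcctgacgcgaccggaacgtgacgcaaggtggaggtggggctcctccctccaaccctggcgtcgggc

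In these stretches Rab3a held 2 CCAAT boxes (CCAAT or its complement ATTGG), and Rab8a, Rab11b and Rab7 held 1 each. Snx32 held a CCAAT box and an E-box (CACGTG). Vps26a held TCACGTGA, the lysosomal gene motif CLEAR, which contains the E-box. Rab11fip5 held GGGGCGGGG, a motif of SP and KLF factors, and Snx14 held the ETS motif CCGGAAGT on its complement. The Vps8 stretch held none of the 9 motifs. The GC content of the 9 stretches ranged from 51.4% in Rab11b to 66.4% in Vps8.

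Just over 1 in 2 trafficking genes carried a promoter peak in the GFP list, and likewise in the SRCAP list. In the GFP list 70 of 133 did (52.6%, 95% Wilson interval 44.2 to 60.9), where 35.0% of all protein-coding genes did. In the SRCAP list 67 of 133 did (50.4%, 42.0 to 58.7), beside 35.6% of all. At 55 genes the promoter carried a peak of each list (41.4%, 33.3 to 49.9, beside 27.0%), and at 82 a peak of at least 1 list (61.7%, 53.2 to 69.5, beside 43.6%). A peak in the GFP list alone was found at 15 genes and in the SRCAP list alone at 12, and 51 genes had none. Intervals here cover counting error only, and genes are not independent replicates.

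Shares of CpG-rich trafficking genes were close to those of all CpG-rich genes, while those of CpG-poor members lay above all CpG-poor genes. Of the trafficking genes, 102 had a CpG-rich reference TSS (76.7%, 68.8 to 83.1), against 46.7% of all protein-coding genes. CpG-rich meant an observed over expected CpG ratio of at least 0.6 and a GC content of at least 55% in the 500 bp around the TSS. Within that class, 55.9% of members (46.2 to 65.1) and 51.5% of all genes had a GFP promoter peak, and 52.9% of members (43.3 to 62.3) and 52.9% of all had a SRCAP peak. In the CpG-poor class, 13 of 31 members had a GFP peak and 13 a SRCAP peak (41.9%, 26.4 to 59.2, for each), and 10 had both (32.3%). Of all CpG-poor genes, 20.5% had a GFP peak, 20.6% a SRCAP peak and 15.4% both. With a CpG ratio of 0.4 and no GC limit, which changes both criteria together, the poor class held 10 members. Of these, 1 had a GFP peak (10%, 1.79 to 40.4) and 2 a SRCAP peak (20%, 5.67 to 51.0), beside 10.8% and 11.0% of all genes in that class.

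Members also had more annotated start sites, with a median of 5 TSSs against 3 for all genes. With 4 or more TSSs the shares of members and of all genes were close, and with fewer TSSs those of members were higher. With 4 or more TSSs, 54.7% of 86 members (44.2 to 64.7) and 50.5% of all genes had a GFP peak, and 53.5% (43.0 to 63.7) and 51.0% a SRCAP peak. With 2 or 3 TSSs the shares were 55.9% of 34 members (39.5 to 71.1) and 26.5% of all genes in the GFP list, and 50% (34.1 to 65.9) and 27.2% in the SRCAP list. With 1 TSS, 4 of 13 members had a GFP and 4 a SRCAP peak (30.8%, 12.7 to 57.6, for each), beside 15.0% and 15.9% of all genes. Of these 13 members, 3 had both.

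**Figure D1:**
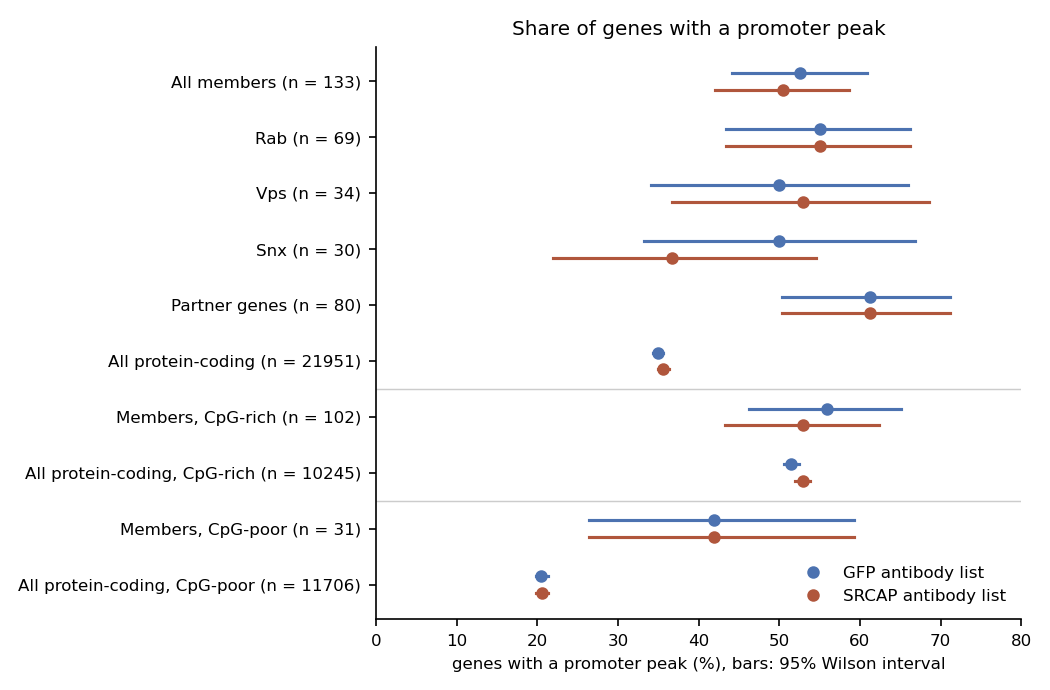
Percent of genes with a promoter peak in the GFP (blue) and the SRCAP (red) list, for members, families, partner genes and all protein-coding genes, then by CpG class at the reference TSS. Points are percentages and bars 95% Wilson intervals. Members lie above all protein-coding genes (52.6 against 35.0% in the GFP list), and in the CpG-rich class the member intervals include the value of all genes.

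The families were alike within their counting error, except that Snx genes had the lowest value in the SRCAP list. Rab genes had 38 of 69 in each list (55.1%, 43.4 to 66.2) and 32 in both. Vps genes had 17 of 34 (50%, 34.1 to 65.9) in the GFP list, 18 (52.9%, 36.7 to 68.5) in the SRCAP list and 14 in both. Snx genes had 15 of 30 (50%, 33.2 to 66.8) in the GFP list, 11 (36.7%, 21.9 to 54.5) in the SRCAP list and 9 in both. These intervals overlap each other. Of all protein-coding genes 35.0% had a GFP and 35.6% a SRCAP promoter peak, so the Snx share in the SRCAP list was near that of all genes. With 2500 bp windows this Snx share was 36.7%, below the 41.9% of all genes. With peaks at or above the median score it was 33.3%, beside 23.5%. The members fell into 17 groups by known role. Shares of the groups spread more widely than those of the families, and groups of 2 to 16 genes do so by counting error alone. Differences between groups were not tested.

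**Figure D2:**
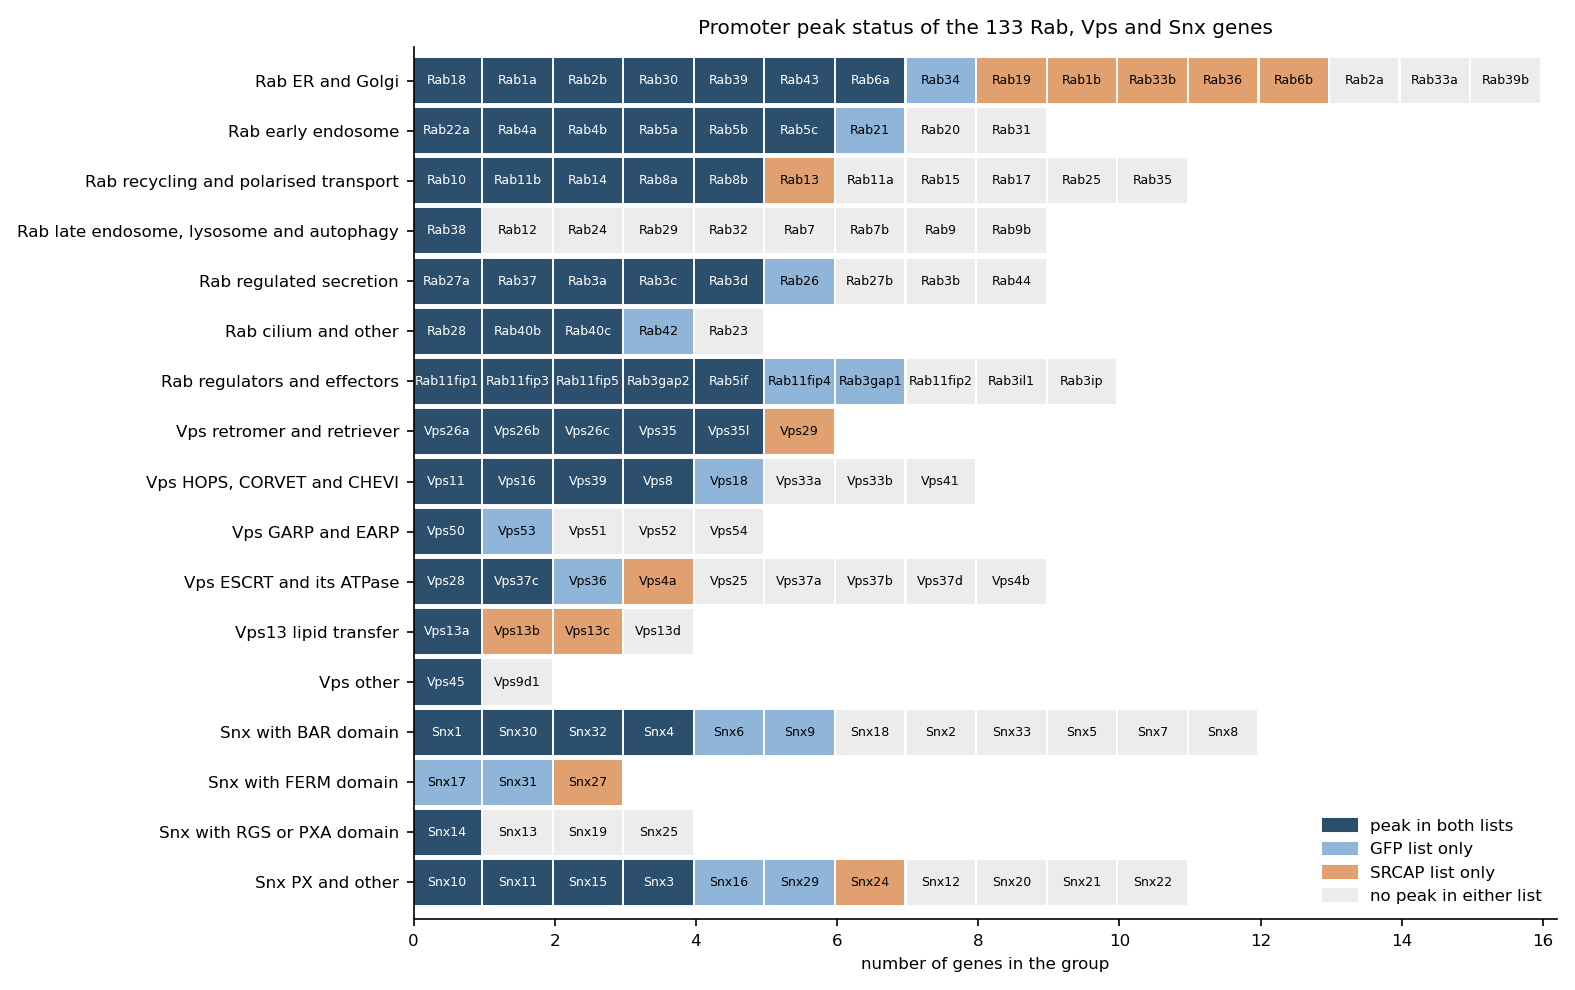
Promoter peak status of each of the 133 genes, 1 tile per gene, in 17 groups by known role, with the number of genes on the horizontal axis. Each of the 6 retromer and retriever genes is coloured, while 8 of the 9 Rab genes of late endosomes, lysosomes and autophagy are grey (no peak in either list).

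Rab genes of the ER and the Golgi had a promoter peak at 8 of 16 in the GFP list and at 12 of 16 in the SRCAP list. Rab1a, which acts in transport from the ER to the Golgi, had a GFP score of 61 and a SRCAP score of 158. The score is the authors' whole-number value for a peak, at least 13 and with a median of 47 in each list, and is compared only within a list. Rab18, of the ER and lipid droplets, scored 58 and 180, and Rab30, a Golgi GTPase, 38 and 86. Rab39 scored 213 and 118 and Rab43 54 and 40. Rab6a, which acts in transport between the Golgi and the ER, scored 72 and 60, and Rab2b 93 and 152. The peaks of these last 2 genes also lay in the promoter windows of the neighbouring genes Mrpl48 and Tox4.

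The same group held 5 of the 12 members found with the SRCAP antibody alone. They were Rab36 (60), Rab1b (59), Rab6b (40), Rab19 (27) and Rab33b (23). Rab34 had a GFP peak alone (28), at an alternative TSS 1269 bp downstream of the reference TSS. Rab2a, Rab33a and Rab39b had no promoter peak.

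Early endosomal Rab genes had a peak at 7 of 9 in the GFP list and 6 of 9 in the SRCAP list. All 3 Rab5 genes, whose products drive homotypic fusion of early endosomes, were in both lists, with GFP scores of 98 (Rab5a), 95 (Rab5b) and 90 (Rab5c). Their SRCAP scores were 54, 150 and 82 in the same order. Rab4a and Rab4b, of rapid recycling, were in both lists too, with 81 and 115 in the GFP list and 48 and 70 in the SRCAP list. Rab22a scored 59 and 34, but its peaks did not overlap, with midpoints at -535 and -87 bp from the TSS. Rab21 had a GFP peak alone (73), and Rab20 and Rab31 had none.

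Among Rab genes of recycling and polarised transport, 5 of 11 had a GFP and 6 of 11 a SRCAP promoter peak. Rab8a, which guides vesicles to the plasma membrane and the cilium, had high scores in both lists, 227 and 277. Rab11b, of the recycling endosome, scored 246 and 185. Its close relative Rab11a had no peak at the promoter or in the body. Rab10 scored 53 and 84, Rab14 26 and 63 and Rab8b 62 and 27. Rab13 had a SRCAP peak alone (29). Rab15, Rab17, Rab25 and Rab35 had no promoter peak.

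Rab genes of late endosomes, lysosomes and autophagy had the smallest share of the 17 groups in each list under the main window and all listed peaks. With only peaks at or above the median score, the share was 0% in the GFP list, as in 3 Vps and Snx groups, and 11.1% in the SRCAP list, where GARP and EARP and the Vps13 family were at 0%. Rab38, of lysosome-related organelles such as melanosomes, was the only 1 of 9 with a promoter peak, scoring 34 and 74 (11.1% in each list, 1.99 to 43.5). Rab7 and Rab7b, of the step from late endosome to lysosome, had none, nor did Rab9 and Rab9b, of return transport to the trans-Golgi. Rab12, Rab24, Rab29 and Rab32 had none either. Of these 8 genes, Rab7 and Rab12 had 1 body peak each, in the GFP list. With 9 genes the upper bound of 43.5% lies above the 35.0% and 35.6% of all protein-coding genes, so counting error alone allows a share at the background. The share also depends on which Rab genes were placed in this group, and the groups were set with earlier results of these data known. Rab7, Rab9, Rab12, Rab24 and Rab32 had a CpG-rich TSS, and Rab9 and Rab9b lie on chromosome X, where promoter peaks were few in all genes.

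Secretory Rab genes had a promoter peak at 6 of 9 in the GFP list and 5 of 9 in the SRCAP list. Rab3a, known from synaptic vesicle release, had the highest SRCAP score of all members (285) and scored 231 in the GFP list. Of its relatives, Rab3c scored 54 and 137 and Rab3d 67 and 86, while Rab3b had none. Rab37 scored 117 and 113. Rab27a, which docks secretory granules, scored 21 and 70, and Rab27b had none. Rab26 had a GFP peak alone (14), and Rab44 had none. Of the cilium group and other Rab genes, Rab40c (236 and 196), Rab28 (134 and 79) and Rab40b (112 and 46) were in both lists, Rab42 was in the GFP list alone (30), and Rab23 had none.

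The symbol rule also takes in 10 genes for regulators and effectors of Rab proteins, of which 7 had a GFP and 5 a SRCAP promoter peak. Rab11fip5, an effector of Rab11, had the highest GFP score of all members (322) but a SRCAP score of 89. Rab11fip1 scored 72 and 66, Rab11fip3 67 and 53 and Rab5if 41 and 23. Rab3gap2 and Rab3gap1 encode the subunits of a GTPase activator of Rab3, which is also an exchange factor of Rab18. Rab3gap2 scored 73 and 25, and Rab3gap1 had a GFP peak alone (54). Rab11fip4 had promoter peaks in the GFP list alone. The stronger (79) lay at an alternative TSS, 69103 bp downstream of the reference TSS, and the other (43) at -624 bp from the reference TSS. Rab11fip2, Rab3il1 and Rab3ip had none. Without these 10 genes and Vps9d1, 63 of 122 members had a GFP (51.6%) and 62 a SRCAP promoter peak (50.8%).

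Retromer and retriever, which return cargo from endosomes to the Golgi and the plasma membrane, had the largest share of the 17 groups in each list under the main window and all listed peaks. In the GFP list this order did not hold at other settings. With peaks at or above the median score early endosomal Rab genes had 77.8% and this group 66.7%, and with 2500 bp windows early endosomal Rab genes (88.9%) and FERM Snx genes (100%) passed its 83.3%. All 6 of their Vps genes had a SRCAP promoter peak (100%, 61.0 to 100) and 5 of 6 a GFP peak (83.3%, 43.6 to 97.0). Vps35, the scaffold of retromer, scored 176 and 200, the highest of the Vps genes in each list. Its binding partners Vps26a and Vps26b scored 110 and 136, and 92 and 74. Vps29, shared by both complexes, had a SRCAP peak alone (40). In retriever, Vps26c scored 44 and 60 and Vps35l 58 and 74. The Vps35l peaks lay at an alternative TSS, with midpoints at -53902 and -53923 bp from the reference TSS. Peaks of Vps35, Vps26b and Vps29 also fell in the promoter windows of Orc6, Ncapd3 and Rad9b, so for these 3 the peak cannot be assigned to 1 gene by position.

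Of the other tethers, HOPS, CORVET and CHEVI genes had 5 of 8 in the GFP list and 4 of 8 in the SRCAP list. Vps11 (48 and 105) and Vps16 (99 and 40), which belong to the core of HOPS and CORVET, were in both, and core subunit Vps18 had a GFP peak alone (41). The Vps16 peaks of both lists also lay in the promoter window of another coding gene. Vps39 of HOPS scored 45 and 63. Vps8 of CORVET scored 31 in the GFP list but 179 in the SRCAP list. Vps33a, Vps33b and Vps41 had no promoter peak. The GARP and EARP tethers at the trans-Golgi had 2 of 5 and 1 of 5. Vps50 scored 31 and 29 and Vps53 had a GFP peak alone (33), both in windows shared with a neighbour (Hepacam2 and Fam57a). Vps51, Vps52 and Vps54 had none.

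ESCRT genes with a Vps name, whose products sort ubiquitinated cargo into multivesicular bodies, had 3 of 9 in each list. Vps28 of ESCRT-I scored 34 and 22, and Vps37c 50 and 18. Vps36 of ESCRT-II had a GFP peak alone (54) and Vps4a, the ATPase that recycles the complex, a SRCAP peak alone (77). Vps25, Vps37a, Vps37b, Vps37d and Vps4b had none. The lipid transfer genes of the Vps13 family had 1 of 4 and 3 of 4. Vps13a scored 70 and 40, Vps13b (18) and Vps13c (34) had a SRCAP peak alone, and Vps13d had none. Vps45, a partner of endosomal SNAREs, scored 24 and 50, and Vps9d1 had no promoter peak.

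Sorting nexins with a BAR domain had 6 of 12 in the GFP list and 4 of 12 in the SRCAP list. Snx32 scored 158 and 111, Snx1 97 and 62, Snx30 75 and 67 and Snx4 22 and 70. Snx6 (26) and Snx9 (41) had a GFP peak alone. Snx1 acts in a heterodimer with Snx5 or Snx6, and neither Snx5 nor Snx2 had a promoter peak. Snx7, Snx8, Snx18 and Snx33 had none. The strongest GFP peak of Snx1 lay at -1660 bp from its reference TSS, at an alternative TSS and in the window of Ciao2a.

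Of the 3 Snx genes with a FERM domain, none was in both lists. Snx27, a cargo adaptor of retromer, had a SRCAP peak alone (82). Snx17, the cargo adaptor of retriever, had a GFP peak alone (40, shared with the window of Eif2b4), as did Snx31 (34). Of the 4 with an RGS or PXA domain, Snx14 scored 68 and 126, and Snx13, Snx19 and Snx25 had none. Of the 11 others, 6 had a GFP and 5 a SRCAP peak. Snx15 (136 and 138), Snx11 (74 and 76), Snx10 (62 and 59) and Snx3 (50 and 84) were in both lists. Snx16 (88) and Snx29 (38) had a GFP peak alone and Snx24 (40) a SRCAP peak alone. Snx12, Snx20, Snx21 and Snx22 had none.

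Close paralogues did not always share their status. The same was not counted for unrelated genes, so it is unknown whether paralogues differ more or less than other genes. Of all 133 members, 55 had a promoter peak in both lists and 51 in neither. Among 21 sets of 2 to 4 paralogues, 5 had a peak in both lists at each gene, which were Rab4, Rab5, Rab8, Rab40 and Vps26. In 3 sets (Rab7, Rab9 and Vps33) no gene had a promoter peak. In 7 sets genes in both lists stood beside genes in neither, such as Rab2b and Rab2a, Rab11b and Rab11a, or Snx1 and Snx2. The other 6 sets held a gene found with 1 antibody alone.

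The partner genes of this machinery were read in the same way, from a list of 80 genes. Of these, 49 had a GFP and 49 a SRCAP promoter peak (61.2%, 50.3 to 71.2, in each list), 41 had both, and 57 had at least 1, where 35.0%, 35.6%, 27.0% and 43.6% of all protein-coding genes did. The partners named here were chosen after their values were seen. ESCRT partners had 14 and 16 of 21, with Mvb12a at 193 and 115 and Hgs, the ESCRT-0 subunit that binds ubiquitin, at 135 and 96. Rab exchange factors and GTPase activators had 17 and 15 of 26, led by Mon1b at 281 and 217, part of the exchange factor of Rab7. Rab prenylation and recycling factors had 5 of 7 in each list, with Chml at 100 and 187. Partners in tethering and the VPS34 lipid kinase had 5 and 6 of 9, with Uvrag at 220 and 463. Retromer, WASH and COMMD partners had 8 and 7 of 17, among which Commd1 scored 88 and 57 and Washc4 58 and 39.

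The scores of member promoter peaks were near those of all genes, and the leading members stood in the upper percentiles of each list. The strongest GFP peak of a member had a median score of 62 over 70 genes (interval of the median 54 to 73), and that of all genes with a peak 57 over 7683. The SRCAP median was 70 over 67 genes (60 to 79), and that of all genes 60 over 7825. Rab11fip5 (322) stood at the upper 1.16% of genes with a GFP peak, and Rab3a (285) at the upper 1.12% of genes with a SRCAP peak. Rab8a stood at the upper 3.27% and 1.30%, Rab40c at 2.88% and 4.43% and Rab11b at 2.55% and 5.29%. The position of a gene in 1 list was not always its position in the other. Vps8 stood at the upper 5.75% in the SRCAP list but at 86.0% in the GFP list, and Rab11fip5 at 28.8% in the SRCAP list.

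**Figure D3:**
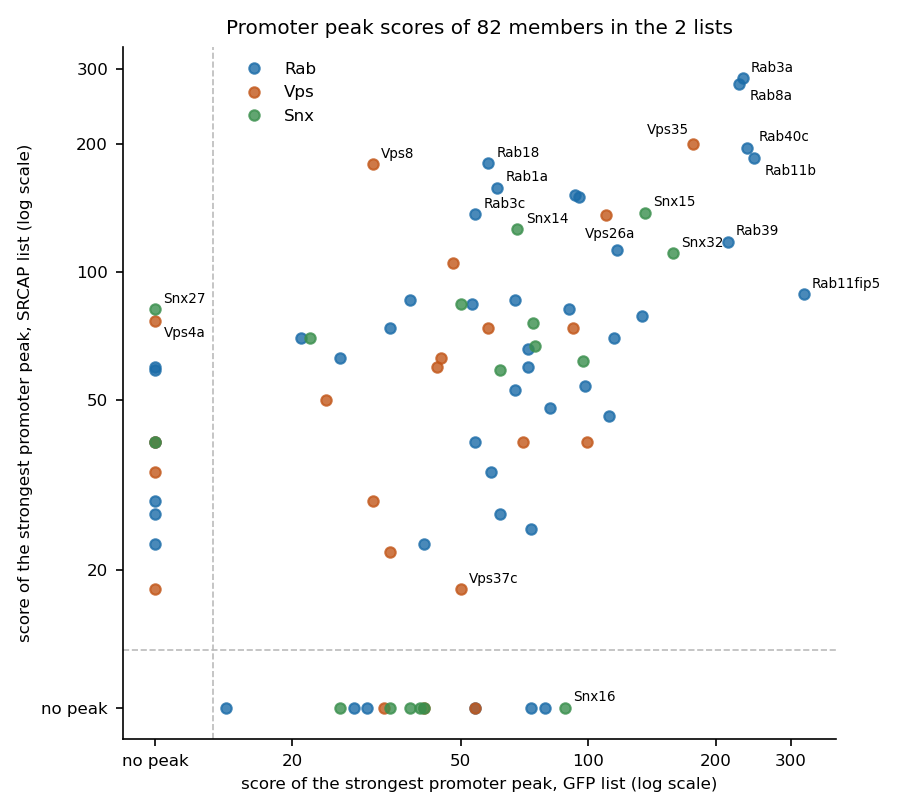
Score of the strongest promoter peak in the GFP (horizontal) and the SRCAP (vertical) list for the 82 members with a peak, both axes on a log scale, with genes absent from a list on the outer margin beyond the dashed line at the lowest score, 13. Rab3a and Rab8a lie at the upper right, Vps8 (31 and 179) and Rab11fip5 (322 and 89) away from the diagonal, and genes of 1 list reach at most 88 (Snx16) and 82 (Snx27).

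Over the 55 genes in both lists rank correlation of the scores (Spearman) was 0.423, and Pearson's r of their logarithms was 0.479. These describe the relation across genes of the same pair of libraries, which share cells and open promoters. The strongest peaks of the lists overlapped each other by at least 1 bp at 52 of the 55, a count not made over all genes. Of the 76 GFP promoter peaks of members, 57 overlapped a SRCAP peak (75%, 64.2 to 83.4), beside 68.8% for all genes, and of the 72 SRCAP promoter peaks 57 overlapped a GFP peak (79.2%, 68.4 to 86.9), beside 68.5%.

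The genes found with 1 antibody had lower scores, in members as in all protein-coding genes. Over all genes the GFP median was 66 for those in both lists and 38 for those in that list alone. The SRCAP medians of all genes were 69 and 40. Among members, the GFP median was 70 over the 55 genes in both lists and 40 over the 15 genes of that list alone. In the SRCAP list it was 74 over 55 and 40 over 12. The strongest were Snx16 (88), Rab11fip4 (79, at an alternative TSS) and Rab21 (73) in the GFP list and Snx27 (82), Vps4a (77) and Rab36 (60) in the SRCAP list. None of these 27 genes had its strongest promoter peak overlapped by the other list, a count not made over all genes. This follows largely from their choice, since the other list had no peak midpoint in their promoter windows. The nearest peak of the other list lay between 2919 bp (Rab33b) and 80848 bp (Vps13c) away.

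Member promoter peaks sat just upstream of the start site. The median midpoint lay at -176 bp from the nearest TSS in the GFP list (quartiles -297 and -13.5 bp), and at -82.5 bp in the SRCAP list (-258 and -6 bp). For all genes the medians were -128 and -92 bp. Of the GFP peaks, 59 of 76 lay upstream and 72 within 500 bp of the TSS, and of the SRCAP peaks 55 of 72 and 70. These counts were not made over all genes. The window reaches 1000 bp upstream but only 500 bp downstream, which by itself leaves more room for upstream midpoints. Widths were alike, with medians of 345 bp (GFP) and 306 bp (SRCAP) in members and 334 and 296 bp in all genes. Few peaks lay near the limits of the window. In the GFP list the outermost inside were those of Rab3gap2 at -840 bp (score 73) and Rab26 at 415 bp (14), and the nearest outside were those of Rab25 at -1154 bp (39) and Vps37a at 589 bp (33). In the SRCAP list they were Rab27a at -707 bp (70) and Rab19 at 394 bp (27) inside, and Vps50 at -1521 bp (74) and Snx10 at 624 bp (34) outside.

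**Figure D4:**
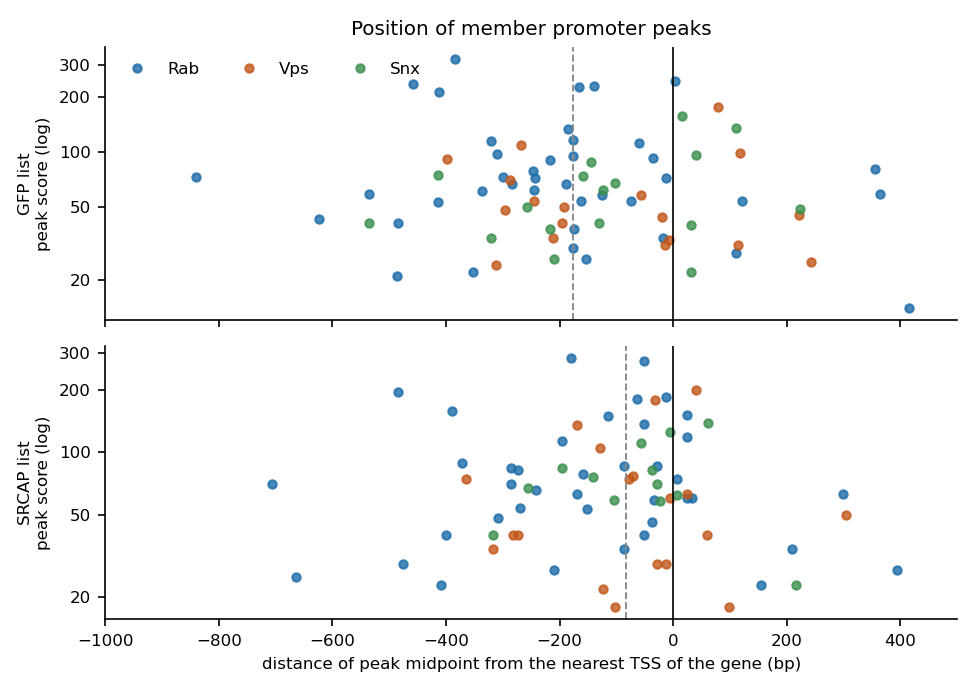
Distance of each member promoter peak from the nearest TSS of its gene in bp (horizontal, negative is upstream) and its score on a log scale, for the GFP (upper panel) and the SRCAP list (lower panel), coloured by family. The solid line is the TSS and the dashed line the median, at -176 and -82.5 bp.

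In the gene bodies, 45 of 133 members had a GFP peak (33.8%, 26.3 to 42.2), where 25.3% of all protein-coding genes did. A SRCAP body peak was found at 44 (33.1%, 25.7 to 41.5), where 25.0% of all did. Without the regulators and effectors and Vps9d1, 31.1% of 122 members (23.6 to 39.8) had a GFP body peak. In the SRCAP list 28.7% of these 122 did (21.4 to 37.3). Both of these intervals include the share of all genes. The members are longer, with a median of 29.0 kb against 17.4 kb for all genes. Per 100 kb of gene there were 1.09 GFP and 1.13 SRCAP body peaks in members, and 0.973 and 0.941 in all genes. Of the 77 GFP body peaks 69 lay in introns, and of the 80 SRCAP body peaks 70 did. Body peaks were shared less widely than promoter peaks, with 49.4% of GFP and 48.8% of SRCAP body peaks overlapping the other list, near the 49.4% and 51.0% of all genes.

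Of the regulators and effectors, 7 of 10 had a GFP and 8 of 10 a SRCAP body peak. All 4 Vps13 genes had a SRCAP body peak and 2 a GFP peak, and of the 4 Snx genes with an RGS or PXA domain 3 had a GFP and 1 a SRCAP body peak. These groups differ in gene length, with medians of 42.9 kb, 194 kb and 81.3 kb. Per 100 kb of gene the regulators and effectors had 3.07 GFP and 4.34 SRCAP body peaks, the Vps13 genes 0.272 and 0.544 and the RGS or PXA genes 0.934 and 0.623. Rab3ip, an exchange factor that activates Rab8, had the most, 6 in each list over 45.0 kb, although it had no promoter peak. Its GFP peaks scored between 17 and 63 and its SRCAP peaks between 14 and 33, and only 2 of the 6 overlapped between lists. Snx30 had 5 in each list over 98.9 kb, and Rab11fip3 had 3 and 4 over 80.5 kb. Rab11fip4 had 2 and 5 over 107 kb, and Rab11fip1 3 and 3 over 35.9 kb.

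The body peaks described next were chosen for their scores, after the values were seen. Vps45 held an intronic peak at chr3:96044552-96044930 in the SRCAP list (265), overlapped by a GFP peak of 193, while its promoter scored 24 and 50. In Rab26 an intronic peak scored 226 and 223, at chr17:24527852-24528230 in the GFP list, where its promoter scored 14 in that list alone. That intronic peak also lay in the promoter windows of Traf7, Snord60 and Rab26os. Rab11fip3 held an intronic peak of 218 and 156, 57379 bp downstream of its reference TSS. A peak of Rab3gap1 scored 216 and 120, in an exon of a transcript and with 50.4% repeat-masked bases, and an intronic GFP peak of Vps50 scored 186 with 81.4%. No promoter peak of a member was more than 50% repeat-masked, against 9 body peaks in each list.

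**Figure D5:**
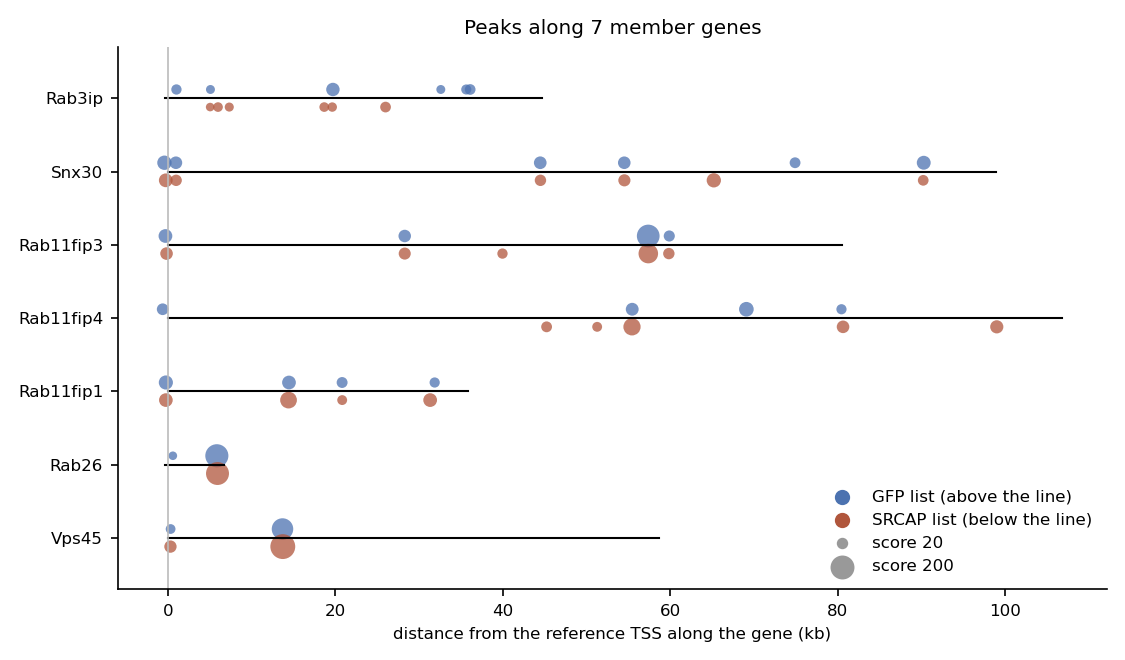
Peaks along 7 members with the reference TSS at 0 and distance along the gene in kb, GFP peaks above and SRCAP peaks below each line, with area growing with the score. Rab3ip holds 6 small peaks in each list and no promoter peak, and Rab26 and Vps45 hold body peaks (226 and 223, 193 and 265) larger than those at their promoters.

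Promoter and body together left 32 members with no peak in either list. These included Rab11a, Rab2a, Rab35, Rab24, Rab9, Snx2, Snx5, Vps25, Vps33a, Vps33b and Vps4b. Another 19 had body peaks alone, such as Rab20, with 2 in each list, and Vps13d, also with 2 in each. These counts were not made over all protein-coding genes. A promoter peak was missing at 51 of 133 members and at 12374 of 21951 protein-coding genes. A gene without a peak is 1 not listed, which is no measure of absent SRCAP, because depth and read counts are not in the lists.

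In promoter sequence from 250 bp upstream to 50 bp downstream of the reference TSS, searched on both strands, the CLEAR motif was more common in members than in all genes. It was found in 8 of 133 members (6.02%, 3.08 to 11.4) and in 1.14% of all protein-coding genes. In CpG-rich genes it was found in 7.84% of members (4.03 to 14.7) and 1.97% of all. The 8 were Rab5a, Rab21, Rab24, Snx2, Vps11, Vps16, Vps26a and Vps33a. Of these, 4 had a promoter peak in both lists, Rab21 had a GFP peak alone, and Rab24, Snx2 and Vps33a had none. The E-box, which CLEAR contains, was found in 15.0% of members (9.95 to 22.1) and 7.71% of all genes, and among CpG-rich genes in 15.7% of members (9.89 to 24.0) and 11.4% of all. The YY1 motif (AAGATGGCG) was found in 6 members (4.51%, 2.08 to 9.49) and in 1.86% of all genes. Among CpG-rich genes it was found in 5.88% of members (2.72 to 12.2) and 3.40% of all. In a window of 500 bp centred on the TSS, YY1 was found in 12 members (9.02%, 5.24 to 15.1) and 3.03% of all genes, and among CpG-rich genes in 10.8% (6.13 to 18.3) and 5.39%. CLEAR was found there in 9 members (6.77%, 3.60 to 12.4) and 1.41% of all.

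Other motifs were set beside peak status. A CCAAT box stood in 28 of the 55 promoters with peaks in both lists (50.9%, 38.1 to 63.6) and in 13 of the 51 with none (25.5%, 15.5 to 38.9), where all genes had 46.9% and 35.5%. With the 500 bp window these shares of members were 50.9% (38.1 to 63.6) and 33.3% (22.0 to 47.0), beside 54.3% and 46.8% of all genes. The 2 member intervals overlap there. GGGGCGGGG stood in 32.7% of members in both lists (21.8 to 45.9) and 15.7% of those with none (8.17 to 28.0), beside 21.3% and 11.0%. The ETS motif had its lower share among members with peaks. It stood in 1 of 55 with peaks in both lists (Snx14, 1.82%, 0.322 to 9.61) and in 7 of 51 with none (13.7%, 6.81 to 25.7), where all genes had 8.21% and 2.72%. With the 500 bp window it stood in 3 of 55 (5.45%, 1.87 to 14.9) and 7 of 51, beside 10.2% and 3.23% of all genes. These member intervals overlap widely. The 7 of the narrower window were Rab2a, Rab11a, Rab24, Snx12, Vps33b, Vps51 and Vps52. NRF1 (GCGCATGC) stood in 6 (4.51%, 2.08 to 9.49) members, CRE (TGACGTCA) in 5 (3.76%, 1.62 to 8.50) and ZNF143 (ACTACAATT) in 1 (0.752%, 0.133 to 4.14), beside 3.73%, 2.48% and 0.56% of all genes. A match says only that these letters are present.

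Peaks were not even over chromosomes in these lists. On chromosome 8, 49.2% of all protein-coding genes had a GFP and 51.3% a SRCAP promoter peak, and on chromosome X 13.6% and 9.49%. The 12 members on chromosome 8 had 6 in each list, and the 5 on chromosome X, Rab9, Rab9b, Rab33a, Rab39b and Snx12, had none. The members with the 3 highest SRCAP scores, Rab3a, Rab8a and Vps35, all lie on chromosome 8, where the median SRCAP score of all genes was 71 against 60 elsewhere. Without chromosomes 8 and X, 64 of 116 members had a GFP (55.2%) and 61 a SRCAP peak (52.6%). The part of the chromosome in these values was not tested.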

How the data were processed

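Each library came as 1 list of peaks deposited by the authors, with a position and a score per peak. The peak names and the processing notes name MACS2, and the notes also list STAR, Picard and the builds mm10 and dm6. The score is a whole number whose meaning was not given in the sources used here, nor were the control and the filters behind the CUT&RUN lists, so the depth is unknown and these choices decide which genes have a listed peak. Peaks were placed by midpoint on GENCODE vM21 (141767 transcripts, GRCm38) with pandas 2.3.3 and numpy 2.4.6 under Python 3.11.15. Sequence came from the GRCm38 reference, read with pysam 0.24.0. The reference TSS was that of the best APPRIS-ranked coding transcript. Overlap meant at least 1 bp. Intervals are 95% Wilson intervals (scipy 1.17.1), and those of medians are from order statistics. Plots were drawn with matplotlib 3.10.9. The assignment and overlap steps were tested on simulated data. The libraries were grouped by antibody. Members, role groups, partner genes and motifs were chosen with earlier results of these data known. Each member is named, with fuller values for the 4 highest scores per family and list, the 3 highest found with each antibody alone and the 5 with most body peaks. Rab41, listed by role, is not in this annotation, and Hgs, annotated as 2 gene records, was counted once. Alternatives changed the window, the start sites, the score limit, the member rule, the CpG and GC limits, the motif window and the overlap.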

Additional observations from a re-analysis of the deposited data

How the results depend on the processing

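No paired analysis was possible because there was a single library for each antibody. Of 121 alternative values for the shares in the comparisons, 93 lay inside the interval around the value in the report and 28 lay outside it. Set against all coding genes under the same alternative, 91 shares kept their side and 14 did not, ties included. CpG-poor members (GFP) went from 41.9% beside 20.5% to 10% beside 10.8%, Vps13 (SRCAP) from 75% beside 35.6% to 0% beside 23.5%, and FERM (GFP) from 66.7% beside 35.0% to 0% beside 22.2%, the last 2 with peaks at or above the median score. Dropping peaks that scored below their list's median lowered the share of members with a promoter peak to 36.1% (GFP), 36.1% (SRCAP) and 26.3% (both), where all coding genes fell to 22.2%, 23.5% and 16.0%. It gave 40.6% for Rab (SRCAP), 26.5% and 29.4% for Vps (GFP and SRCAP), 30% for Snx (GFP), and 37.5%, 36.2% and 23.8% for partners (GFP, SRCAP, both). Body peaks came to 21.8% and 18.8%. Added after seeing the data, the same limit by role group gave 50% for ER and Golgi (SRCAP), 25% for BAR (GFP), 25% for HOPS, CORVET and CHEVI (GFP), 11.1% for ESCRT (SRCAP), and 0% for late endosome, FERM and the other Vps genes (GFP), GARP and EARP (both lists) and Vps13 (SRCAP). A window of 2500 bp gave 100% for FERM (GFP) and for the other Vps genes (SRCAP). A CpG limit of 0.4 with no GC limit gave 10% and 20% for CpG-poor members. With a reciprocal overlap of 50%, 52.6% of GFP and 55.6% of SRCAP promoter peaks were shared. Leaving out peaks also in a window of another coding gene, added after seeing the data, left 46.6% and 45.1% of members. Using the reference TSS alone removed Rab26, Rab34, Snx10 and Vps35l (GFP) and Snx10, Vps13b and Vps35l (SRCAP). With 1 library per antibody, replicate error is unknown.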
